A study of Mus musculus with 6 samples.

Results

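The genes of glycolysis and pyruvate metabolism were followed across 6 mouse cell samples. They are 34 named genes that cover glucose uptake, the 10 enzyme steps from glucose to pyruvate, the enzymes that set fructose-2,6-bisphosphate, lactate formation and transport, and the pyruvate dehydrogenase complex with its kinases. The list was given by name, and all 34 were found through the transcript accession of their probes, among 17016 named genes in all. Pkm2 of the list is Pkm in the gene table. All 34 were well above background on all 6 arrays, so no member was lost to the filter on dim probes. Members with several probes, 14 in number, are represented by the probe with the highest mean signal.

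Total RNA was hybridised to one-colour Agilent arrays, with 1 array in each group. All cells were of strain 129 and were grown in Knockout DMEM with 20% KSR, a serum substitute. The untreated groups were mouse embryonic stem (mES) cells labelled E3.5, epiblast stem cells (EpiSCs) labelled E3.5 and EpiSCs labelled E5.5, where the label is the embryonic day. The other groups were the same lines given SB431542, an inhibitor of the type I receptor kinases for Activin, Nodal and TGF-beta, at 20 µM each day for 4 days. Each EpiSC type is 1 line, so a difference between the E3.5 and E5.5 lines cannot be told apart from a difference between any pair of lines. Levels are log2 signals, scaled to each array's 75th percentile, and they can be compared between arrays for a gene but not between genes. Where arrays are listed, the order is mES, mES + SB431542, E3.5 EpiSC, E3.5 EpiSC + SB431542, E5.5 EpiSC and E5.5 EpiSC + SB431542.

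Glycolysis splits glucose into pyruvate with a small gain of ATP. Pyruvate then either becomes lactate, which leaves the cell through monocarboxylate transporters, or enters mitochondria and becomes acetyl-CoA through the pyruvate dehydrogenase complex. Pluripotent cells are known for a high glycolytic rate, and primed cells such as EpiSCs are described as more dependent on it than naive mES cells. Many glycolytic genes are known targets of hypoxia-inducible factors and of Myc.

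The arrays fell on 3 slides. The mES pair and the E5.5 pair shared slide 1. The untreated E3.5 array lay on slide 2 and the treated E3.5 array on slide 3. The mES and E5.5 differences were thus measured within a slide, and the E3.5 difference cannot be told apart from a slide difference. On each array 82.6% to 85.7% of gene spots passed the scanner program's test for signal over background, and 0 were saturated. Pou5f1, the defining pluripotency factor, lay between 5.34 and 5.88 on both mES arrays and both untreated EpiSC arrays, and at -5.40 and -4.38 on the treated E3.5 and E5.5 arrays. Hes5, a neural progenitor gene, stood at 6.08 and 4.92 on those treated arrays and between -1.66 and -1.06 on the others. On the treated EpiSC arrays the defining marker of the labelled cell type was thus low, though still above background. Of 10 pluripotency markers, 8 had lower and 2 higher estimates with SB431542 in EpiSCs, and all 6 neural markers had higher ones. Sox2, a pluripotency marker, was higher by 0.67 and 0.32 in the treated E3.5 and E5.5 lines. Sox1, a neural marker, stayed low there, at -2.38 and -2.05. Of 20 fibroblast and feeder markers, 19 or 20 were well above background on every array, and their summed linear level in array order was 48.2, 71.5, 83.2, 76.3, 142 and 136. The sum was higher on both E5.5 arrays than on the others. The markers' median log2 level was -0.42, -0.34, 0.02, 0.34, 1.44 and 0.82. With SB431542 this median was thus higher in the E3.5 line and lower in the E5.5 line. Single markers moved in unlike ways: in the E3.5 and E5.5 lines Col3a1 differed by 2.87 and -1.36, and Tagln by -2.51 and 1.56. The part of fibroblast and feeder signal in the results was not tested. In bulk RNA, fewer cells of a type and less RNA per cell cannot be told apart.

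Because many members had lower levels together, the promoters of 4 are shown, from the RefSeq table of build GRCm38.p6: Slc2a1 and Slc16a3, which passed a test described here, Ldha, the lactate enzyme, and Pfkfb4, whose estimate went the other way. Each window is the 250 bases before the annotated start, read 5′ to 3′ on the gene's strand. Capitals mark ACGTG on either strand, and also the form of this motif that begins with G, which is GCGTG. Both are core letters of the sites that hypoxia-inducible factors bind. The E-box bound by Myc and other factors, CACGTG, holds the first motif on each strand and so counts as 2 matches to it. Slc2a1 lies at chr4:119108495-119108744, Slc16a3 at chr11:120948817-120949066, Ldha at chr7:46845554-46845803 and Pfkfb4 at chr9:108991652-108991901, all on the plus strand.
Slc2a1: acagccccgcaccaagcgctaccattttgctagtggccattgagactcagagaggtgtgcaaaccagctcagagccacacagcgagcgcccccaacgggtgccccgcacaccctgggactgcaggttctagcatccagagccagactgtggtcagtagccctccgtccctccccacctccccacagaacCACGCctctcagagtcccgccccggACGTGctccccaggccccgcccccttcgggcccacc
Slc16a3: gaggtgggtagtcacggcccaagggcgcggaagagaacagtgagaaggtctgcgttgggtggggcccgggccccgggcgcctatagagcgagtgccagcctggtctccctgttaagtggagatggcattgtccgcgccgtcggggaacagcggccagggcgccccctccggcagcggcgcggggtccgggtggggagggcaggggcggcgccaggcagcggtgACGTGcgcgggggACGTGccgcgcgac
Ldha: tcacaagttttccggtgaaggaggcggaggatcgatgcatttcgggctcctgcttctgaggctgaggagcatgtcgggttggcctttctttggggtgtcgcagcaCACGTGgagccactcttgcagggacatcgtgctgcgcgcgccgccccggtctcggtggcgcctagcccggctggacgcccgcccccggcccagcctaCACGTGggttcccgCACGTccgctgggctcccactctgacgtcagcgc
Pfkfb4: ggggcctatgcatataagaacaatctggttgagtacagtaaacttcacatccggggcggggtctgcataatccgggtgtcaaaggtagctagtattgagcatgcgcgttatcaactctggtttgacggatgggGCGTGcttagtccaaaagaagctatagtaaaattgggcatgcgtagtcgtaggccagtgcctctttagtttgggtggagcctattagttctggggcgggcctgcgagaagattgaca
The Slc2a1 window held 1 match to each of these core motifs. The Slc16a3 window held 2 matches to ACGTG and the Ldha window 5, which include those from its 2 E-boxes. The Pfkfb4 window held 1 match to GCGTG. Of the 34 members, 33 had a promoter in the table, and Slc2a3 is named only. For the 12 with more than 1 start, the first listed was used. ACGTG was present in 13 of 33 member windows (39.4%), against 16.6% of 27025 windows of the same length over all genes. GCGTG was present in 18 (54.5%, against 28.2%), and at least 1 of these core motifs in 25 (75.8%, against 38.6%). The E-box was present in 5 (15.2%, against 6.05%). Member windows were richer in G and C: the median was 62.8% for the 13 whose gene was at least 2-fold lower with SB431542 in both EpiSC lines and 60.2% for the other 20, against 52% for all genes. A core motif was present in 11 of the 13 and in 14 of the 20. A match is a run of letters in this window and not a measured site, and the part of base composition in these shares was not tested.

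With SB431542, most members were lower in both EpiSC lines. In both lines 29 of 34 were below their untreated array by any amount (85.3%, against a background of 46.7% of 16153 genes), and 14 were lower by at least 2-fold (41.2%, against a background of 6.01%). The 14 were the glucose transporters Slc2a1 and Slc2a3, Hk2, Pfkl, Aldoa, Aldoc, Tpi1, Pgk1, Eno1, Ldha, Pdk1, the monocarboxylate transporters Slc16a1 and Slc16a3, and Pdha1. At least 2-fold differences were present in 6 of the 10 enzyme steps, and each of the 10 steps had a member that was lower in both lines. No member was at least 2-fold higher in both lines, where the background was 4.78%. With quantile normalization the fitted differences in EpiSCs, which are means over both lines, were -0.79 for Tpi1, -0.71 for Pgk1 and -0.77 for Ldha. None of these was then at least 2-fold lower in both lines. The counts of 14 members and 6 steps thus belong to the main scaling. The 14 also rest on the probe chosen. The second Pdha1 probe had 1.91 on both E3.5 arrays, and 2.15 and 1.94 on the untreated and treated E5.5 arrays.

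In the test that treats the pair of EpiSC lines as replicates of their class, 0 of 34 members passed (limma, adjusted p under 0.05; background 338 genes, 2.09%, of which 1.2% lower and 0.891% higher). At an unadjusted p under 0.05, 22 of 34 members passed, against 3203 of 16153 genes. The median fitted difference over the members was -0.96, and over all genes tested it was -0.19. Estimates were negative for 29 members and positive for 5, and the lowest adjusted p among them was 0.0668. With the line as a block, which pairs each treated array with the untreated array of its own line, 3 members passed, all lower (background 3.26% lower, 2.5% higher and 5.76% in either direction): Slc2a1, Slc2a3 and Slc16a3. These 3 also passed without the block when only genes above background on all 6 arrays were tested (background 2.06% lower and 1.67% higher). With the block and quantile normalization 0 of 34 passed, with a lowest adjusted p of 0.0653 (background 1.73% lower and 1.3% higher). With the block and normexp background correction 16 passed as lower and 1 as higher, in a fit where 2000 of all genes passed as lower and 710 as higher (background 12.4% and 4.4%). The labels do not say whether the samples were separate cultures. The p-values therefore speak of the spread between these arrays alone, and that spread may be technical.

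**Figure D1:**
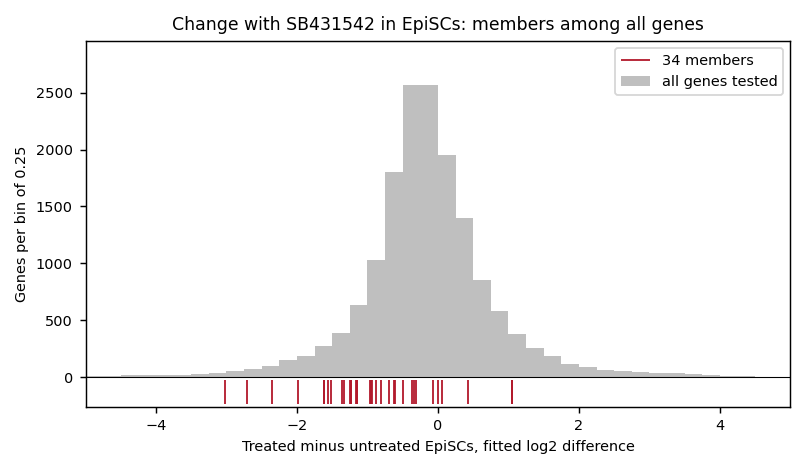
Fitted log2 difference of treated against untreated EpiSCs for all 16153 genes tested (grey bars, genes per bin of 0.25 log2) and for the 34 glycolysis and pyruvate genes (red ticks under the axis). The members' median was -0.96 and that of all genes -0.19; 38 genes below -5 and 15 genes at or above 5 lie outside the plotted range.

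**Figure D2:**
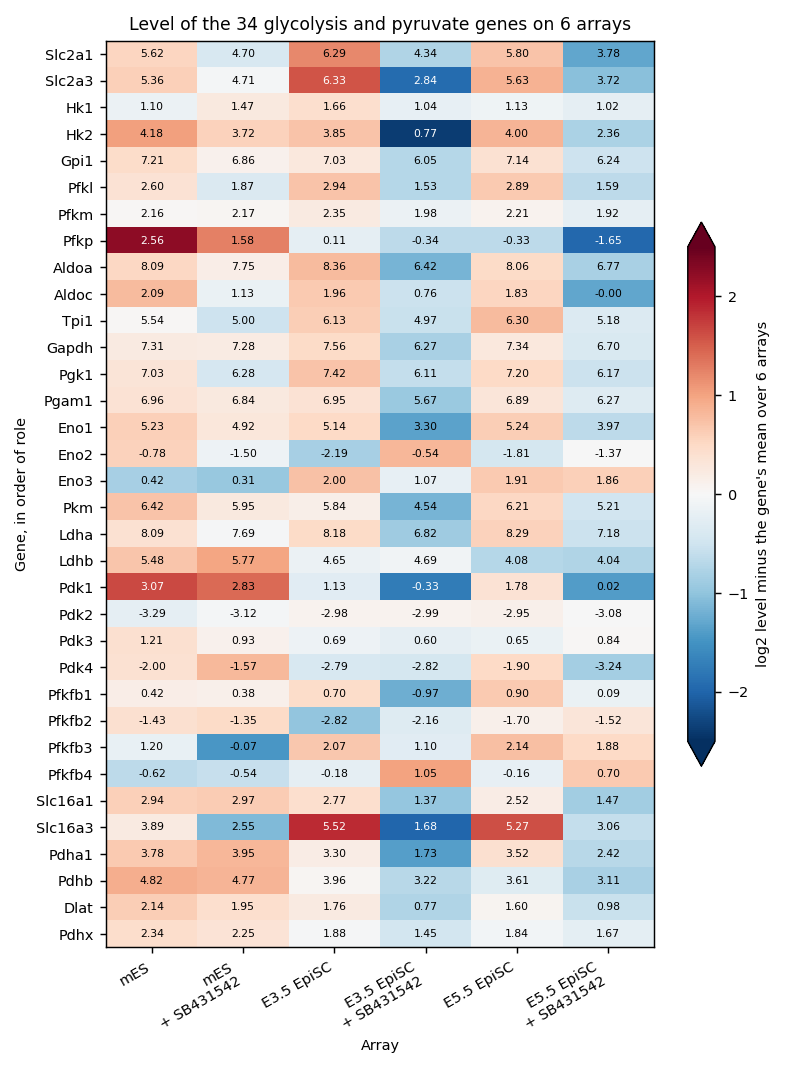
Level of each of the 34 genes on the 6 arrays: the printed number is the log2 level relative to the array's 75th percentile, and the colour is that level minus the gene's mean over the 6 arrays. For 24 of 34 genes both treated EpiSC arrays were below the 4 other arrays, as were 29.5% of all genes tested; for 29 of 34 they were below both untreated EpiSC arrays (background 36.6%) and for 2 above both (background 20.5%).

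Glucose enters the cell through facilitative transporters, of which Slc2a1 encodes GLUT1 and Slc2a3 encodes the high-affinity GLUT3. Slc2a1 levels in array order were 5.62, 4.70, 6.29, 4.34, 5.80 and 3.78. Slc2a3 levels were 5.36, 4.71, 6.33, 2.84, 5.63 and 3.72. For both transporters the treated EpiSC arrays were the lowest and the untreated E3.5 array the highest. Slc2a1 fell by 3.87-fold in the E3.5 line and 4.05-fold in the E5.5 line, and its fitted log2 difference was -1.98 ± 0.28 with the block (SE, 2 treated and 2 untreated arrays, limma adjusted p = 0.0308) and had an adjusted p of 0.0759 without it. Slc2a3 fell by 11.3-fold in the E3.5 line and 3.77-fold in the E5.5 line, with a fitted difference of -2.71 ± 0.46 with the block (limma adjusted p = 0.0432) and an adjusted p of 0.0668 without it. The mES pair had smaller differences, of 1.90-fold and 1.57-fold in the same direction. Over all settings run, the limma adjusted p ran from 0.00624 to 0.252 for Slc2a1 and from 0.00933 to 0.202 for Slc2a3.

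Hexokinases trap glucose as glucose-6-phosphate, and Hk2 is the inducible isoform. Hk2 levels were 4.18, 3.72, 3.85, 0.77, 4.00 and 2.36. The mES arrays and the untreated EpiSC arrays lay close together, and the treated EpiSC arrays lay below them. The Hk2 difference was 8.50-fold lower in the E3.5 line and 3.10-fold lower in the E5.5 line, with a limma adjusted p of 0.135, or 0.0517 with the block. Hk1, the constitutive isoform, had levels of 1.10, 1.47, 1.66, 1.04, 1.13 and 1.02, which differed by 1.54-fold at most between treated and untreated arrays of a line. The 5 Hk1 probes disagreed: the fitted difference with SB431542 in EpiSCs was -0.37 for the brightest probe, positive for 2 of the other 4 (0.10 and 0.23) and negative for the rest (-1.27 and -0.02).

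Gpi1 converts glucose-6-phosphate to fructose-6-phosphate. Its levels were 7.21, 6.86, 7.03, 6.05, 7.14 and 6.24, and both treated EpiSC arrays were the lowest. Phosphofructokinase then commits the sugar to glycolysis, and its 3 subunit genes had different patterns. Pfkl, the liver-type subunit, had levels of 2.60, 1.87, 2.94, 1.53, 2.89 and 1.59, and was 2.66-fold and 2.46-fold lower in the treated E3.5 and E5.5 lines (limma adjusted p = 0.0837). Pfkm, the muscle-type subunit, stayed between 1.92 and 2.35 on all arrays. Pfkp, the platelet-type subunit, had levels of 2.56, 1.58, 0.11, -0.34, -0.33 and -1.65. The mES arrays were its highest, and the second Pfkp probe, which was dimmer, lay between -3.27 and -2.79 on all 6 arrays and did not show that order.

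Aldolase cleaves fructose-1,6-bisphosphate into triose phosphates. Aldoa levels were 8.09, 7.75, 8.36, 6.42, 8.06 and 6.77, a difference of 3.84-fold in the E3.5 line and 2.43-fold in the E5.5 line (limma adjusted p = 0.0811). Aldoc levels were 2.09, 1.13, 1.96, 0.76, 1.83 and -0.0028, a difference of 2.29-fold and 3.56-fold. Aldoa was lower by more in the E3.5 line and Aldoc by more in the E5.5 line. Tpi1, which interconverts the triose phosphates, had levels of 5.54, 4.997, 6.13, 4.97, 6.30 and 5.18. The 3 treated arrays were its lowest.

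Gapdh, which oxidises glyceraldehyde-3-phosphate and is often used as a reference gene, had levels of 7.31, 7.28, 7.56, 6.27, 7.34 and 6.70. It was 2.45-fold lower in the treated E3.5 line and 1.56-fold lower in the treated E5.5 line, with a fitted log2 difference of -0.97 ± 0.30 (SE, limma adjusted p = 0.190). With quantile normalization the fitted Gapdh difference was smaller, at -0.49 (limma adjusted p = 0.354). Pgk1, the kinase that makes the first ATP of the pathway, had levels of 7.03, 6.28, 7.42, 6.11, 7.20 and 6.17. All 3 treated arrays lay below all 3 untreated arrays for Pgk1, and its other probe had the same order, with 5.99, 5.87 and 5.90 on the treated arrays and between 6.77 and 7.38 on the untreated ones. Pgam1, the mutase that follows, had levels of 6.96, 6.84, 6.95, 5.67, 6.89 and 6.27. Several of these genes have near-identical processed copies in the mouse genome, and whether their probes also bound RNA of such copies was not tested.

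Enolase makes phosphoenolpyruvate, and its 3 genes did not share 1 pattern. Eno1, the widely expressed enolase, had levels of 5.23, 4.92, 5.14, 3.30, 5.24 and 3.97, so the treated EpiSC arrays were 3.58-fold and 2.41-fold below their untreated arrays. Eno2, the neuron-specific enolase, had levels of -0.78, -1.50, -2.19, -0.54, -1.81 and -1.37. Its estimate with SB431542 in EpiSCs was positive, at 1.05 ± 0.39 (SE, limma adjusted p = 0.246), while the mES pair differed by -0.72, and its second probe gave 0.81 in EpiSCs. Eno3, the muscle enolase, had levels of 0.42, 0.31, 1.999, 1.07, 1.91 and 1.86. All 4 EpiSC arrays lay above both mES arrays for Eno3, and the treated E3.5 array was the lowest of the 4. Pkm, which makes pyruvate and ATP, had levels of 6.42, 5.95, 5.84, 4.54, 6.21 and 5.21, and was 2.46-fold and 1.998-fold lower in the treated E3.5 and E5.5 lines. The Pkm probe does not name its splice forms.

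**Figure D3:**
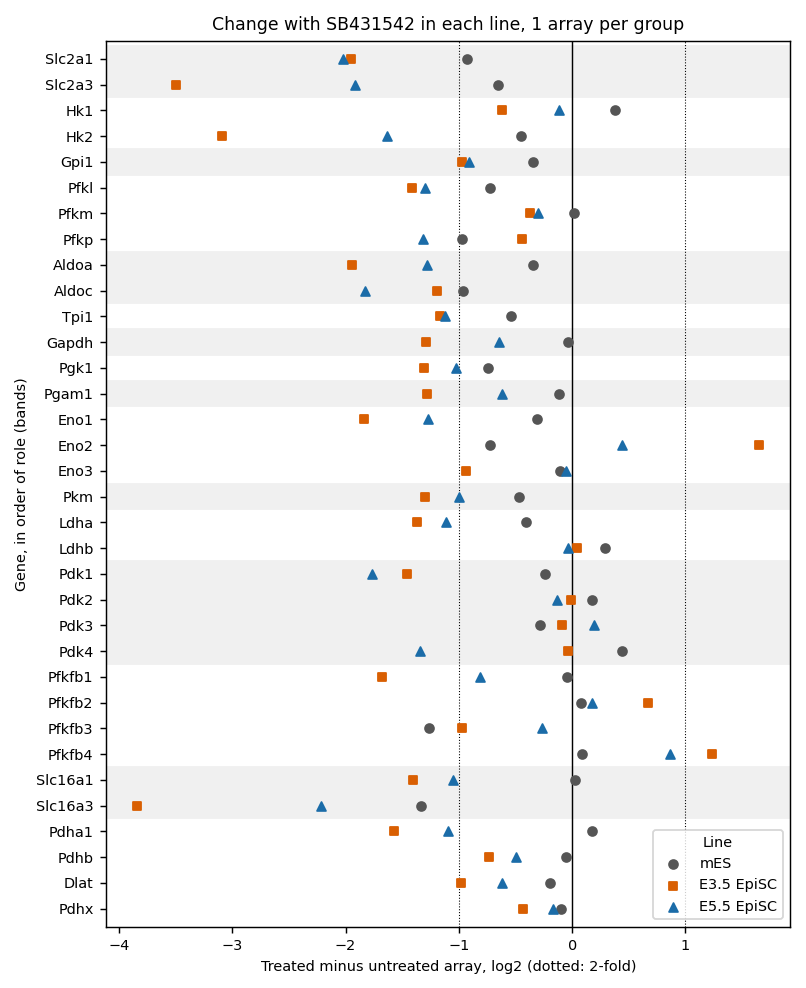
Log2 level of the treated array minus that of the untreated array for each of the 34 genes, in mES cells (grey circles), the E3.5 EpiSC line (orange squares) and the E5.5 EpiSC line (blue triangles); dotted lines mark 2-fold. At least 2-fold lower were 2 members in mES cells (background 1.13%), 18 in the E3.5 line (background 19.6%) and 16 in the E5.5 line (background 8.77%).

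Lactate dehydrogenase interconverts pyruvate and lactate, and its subunit genes had unlike patterns. Ldha, the subunit that favours lactate formation, had levels of 8.09, 7.69, 8.18, 6.82, 8.29 and 7.18, with the treated EpiSC arrays 2.58-fold and 2.17-fold below their untreated arrays (limma adjusted p = 0.114). The second Ldha probe gave a fitted difference of -1.84, against -1.24 for the first. Ldhb, the heart-type subunit, had levels of 5.48, 5.77, 4.65, 4.69, 4.08 and 4.04, and within a line the treated and untreated arrays differed by 1.23-fold at most. Its fitted difference in EpiSCs was 0.0022, with a 95% interval from -0.99 to 0.997, so a difference just under 2-fold in either direction was not excluded.

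Monocarboxylate transporters carry lactate and pyruvate across the plasma membrane. Slc16a3, which encodes the exporter MCT4, had levels of 3.89, 2.55, 5.52, 1.68, 5.27 and 3.06. The untreated EpiSC arrays were its highest and the treated E3.5 array its lowest. Slc16a3 fell by 14.3-fold in the E3.5 line and 4.64-fold in the E5.5 line, with a fitted difference of -3.03 ± 0.46 with the block (SE, limma adjusted p = 0.0356) and an adjusted p of 0.0728 without it. Over all settings run, its adjusted p ran from 0.00598 to 0.135. It was also the only member at least 2-fold lower in all 3 lines, where the background was 0.433%, with a 2.53-fold difference in the mES pair. Slc16a1, which encodes MCT1, had levels of 2.94, 2.97, 2.77, 1.37, 2.52 and 1.47. Its mES arrays differed by 1.02-fold, and its 3 probes gave fitted differences in EpiSCs of -1.23, -1.21 and -1.25.

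Pyruvate dehydrogenase kinases inhibit the pyruvate dehydrogenase complex by phosphorylation. Pdk1, a known hypoxia-inducible gene, had levels of 3.07, 2.83, 1.13, -0.33, 1.78 and 0.02. The mES arrays were its highest and the treated EpiSC arrays its lowest, 2.74-fold and 3.40-fold below their untreated arrays (limma adjusted p = 0.107, or 0.0503 with the block). Pdk2 stayed between -3.29 and -2.95, and Pdk3 between 0.60 and 1.21. Pdk4, a kinase known to respond to fasting, had levels of -2.004, -1.57, -2.79, -2.82, -1.90 and -3.24, so it was 2.54-fold lower in the treated E5.5 line and differed by 1.02-fold in the E3.5 line.

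Among the genes of the complex itself, Pdha1 encodes the catalytic E1 alpha subunit that those kinases phosphorylate. Pdha1 levels were 3.78, 3.95, 3.30, 1.73, 3.52 and 2.42, a difference of 2.97-fold and 2.14-fold in the E3.5 and E5.5 lines (limma adjusted p = 0.147). The second Pdha1 probe gave a fitted difference of -0.10, against -1.33 for the first, so the probes disagree on its size. Pdhb, the E1 beta subunit, had levels of 4.82, 4.77, 3.96, 3.22, 3.61 and 3.11, and its second probe gave -0.66 against -0.62 for the first. Dlat, the E2 acetyltransferase, had levels of 2.14, 1.95, 1.76, 0.77, 1.60 and 0.98. Pdhx, the E3-binding protein, had levels of 2.34, 2.25, 1.88, 1.45, 1.84 and 1.67. For both Dlat and Pdhx the dimmer second probe gave an estimate of the other sign, 0.05 and 0.24.

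The bifunctional enzymes of the Pfkfb family make and remove fructose-2,6-bisphosphate, the strongest known activator of phosphofructokinase, and they did not move together. Pfkfb4 had levels of -0.62, -0.54, -0.18, 1.05, -0.16 and 0.70. It was the 1 member for which both treated EpiSC arrays lay above the 4 other arrays (background 16%), by 2.35-fold in the E3.5 line and 1.82-fold in the E5.5 line, with a fitted difference of 1.05 ± 0.28 (SE, limma adjusted p = 0.153). Pfkfb3 had levels of 1.20, -0.07, 2.07, 1.10, 2.14 and 1.88. Its 2.41-fold difference in the mES pair was larger than those in the EpiSC lines, 1.96-fold and 1.20-fold. The other Pfkfb3 probes, which were dimmer, did not show that order. They differed by -0.70 and -0.80 in the mES pair, and went from -1.83 to -3.15 and from -3.48 to -4.67 in the E3.5 line. Pfkfb1 levels were 0.42, 0.38, 0.70, -0.97, 0.90 and 0.09, and Pfkfb2 levels were -1.43, -1.35, -2.82, -2.16, -1.70 and -1.52. Pfkfb1 was 3.19-fold and 1.75-fold lower in the treated lines, while the Pfkfb2 estimates were positive for all 3 of its probes.

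The EpiSC lines had like orders of members. Over the 34 members, the differences in the E3.5 and E5.5 lines had a Pearson r of 0.82 and a Spearman rho of 0.78; the lines share no array, and genes are not independent replicates. At least 2-fold lower were 18 members in the E3.5 line (52.9%, background 19.6%) and 16 in the E5.5 line (47.1%, background 8.77%), where both arrays share a slide. At least 2-fold higher were 2 in the E3.5 line (5.88%, background 11.4%) and 0 in the E5.5 line (background 6.46%). The median member difference was -1.18 in the E3.5 line, where all genes had -0.31, and -0.95 in the E5.5 line, where all genes had -0.06. The E3.5 difference was the more negative for 24 of 34 members (70.6%), and it was so for 62.8% of all genes. Of the members, 20 had their lowest level on the treated E3.5 array (background 42.7% of all genes tested) and 8 on the treated E5.5 array (background 12.9%).

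In mES cells the same treatment gave smaller differences. The median member difference was -0.26, with 25 of 34 lower, and all genes had a median of 0.02. At least 2-fold lower were Slc16a3 and Pfkfb3, 2 of 34 (5.88%, background 1.13%), and 0 members were at least 2-fold higher (background 1.41%). The other Pfkfb3 probes differed by -0.70 and -0.80 in the mES pair, which is less than 2-fold. Members lower in all 3 lines numbered 23 (67.6%, background 22.3%). The difference between the EpiSC response and the mES response was tested directly: 0 of 34 members and 0 of all genes passed (limma; background 0%), with 2 members and 1114 genes at an unadjusted p under 0.05. These 2 were Slc2a3, with a log2 difference of responses of -2.05 ± 0.77 (SE, limma adjusted p = 0.722), and Slc16a1, with -1.26 ± 0.46 (limma adjusted p = 0.706). The median over the members was -0.62 and over all genes -0.21, and with quantile normalization these were -0.29 and -0.12. In the model of a common response across the 3 lines, 0 of 34 members passed and 0 of all genes (limma; background 0%), with 16 members and 1397 genes at an unadjusted p under 0.05. The median there was -0.82 for the members and -0.12 for all genes, and without the treated or the untreated E3.5 array it was -0.49 for the members and -0.014 for all genes. Slc2a1 had -1.63 ± 0.30 (SE, limma adjusted p = 0.502). Leaving out either mES array leaves the EpiSC pairs alone in that fit, which is then the same test as the one with the line block. The same 3 members passed as lower (background 3.26% lower and 2.5% higher).

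Untreated EpiSCs and untreated mES cells were set against each other to compare primed with naive cells. The medians lay close to 0: -0.04 over the members and -0.06 over all genes. Estimates were higher in EpiSCs for 16 members and lower for 18, and 0 of 34 passed (limma; background 242 genes, 1.5%, of which 1.11% lower and 0.39% higher), with 4 members and 2642 genes at an unadjusted p under 0.05. The 4 were Pfkp, Pdk1, Eno3 and Pdhb. Members at least 2-fold lower than mES in both EpiSC lines were Pfkp, Eno2 and Pdk1, 3 of 34 (8.82%, background 7.31%), and those at least 2-fold higher in both were Eno3 and Slc16a3, 2 of 34 (5.88%, background 7.94%). Both shares were near their background.

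**Figure D4:**
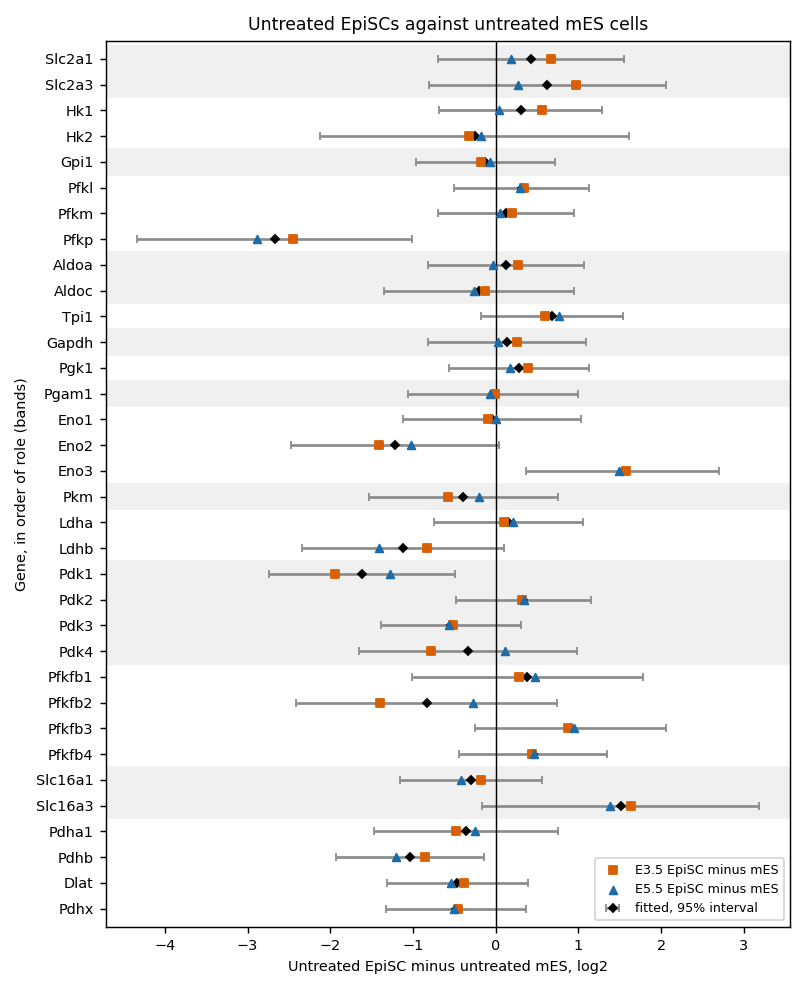
Untreated EpiSCs minus untreated mES cells, in log2, for each of the 34 genes: the fitted difference with its 95% interval (black diamonds, limma), the E3.5 line (orange squares) and the E5.5 line (blue triangles). Pfkp and Pdk1 lay lowest and Eno3 and Slc16a3 highest, and 0 of 34 passed at an adjusted p under 0.05.

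Pfkp was 5.47-fold lower than mES in the E3.5 line and 7.41-fold lower in the E5.5 line, with a fitted difference of -2.67 ± 0.63 (SE, 2 EpiSC arrays against 1 mES array, limma adjusted p = 0.143), while its second probe gave -0.09. Pdk1 was 3.84-fold and 2.43-fold lower, at -1.61 ± 0.43 (limma adjusted p = 0.173). On the positive side, Eno3 stood at 1.53 ± 0.44 (limma adjusted p = 0.203) and Slc16a3 at 1.51 ± 0.64 (limma adjusted p = 0.357). Pdhb and Ldhb were lower by 2.31-fold and 2.65-fold in the E5.5 line and by 1.82-fold and 1.78-fold in the E3.5 line. Estimates for Gapdh and Ldha lay nearer to 0: Gapdh stood at 0.14, with a 95% interval from -0.81 to 1.10, and Ldha at 0.15, with an interval from -0.75 to 1.05. These intervals do not exclude a 1.5-fold difference in either direction. All 20 fibroblast and feeder markers had positive estimates in this comparison, with a median of 0.90, and 0 of the 20 passed.

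Between the EpiSC lines, 0 of 34 members and 0 of all genes passed (limma; background 0%), with 2 members and 1267 genes at an unadjusted p under 0.05. Those 2 were Pfkfb2, which stood at 0.88 ± 0.28 in E5.5 over E3.5 (SE, limma adjusted p = 0.565), and Pfkp, at -0.87 ± 0.31 (limma adjusted p = 0.618). The other Pfkfb2 probes, which were dimmer, went the other way, with lower levels in the E5.5 line. The brighter of them had -3.66 and -1.84 on the untreated and treated E3.5 arrays, and -4.05 and -3.46 on the E5.5 arrays. The median was 0.09 over the members and 0.12 over all genes.

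Genes around the pathway were counted in lists, which were chosen with earlier results of these data known. Among 18 other glycolytic isoforms and factors, 1 passed with SB431542 in EpiSCs (background 1.2% lower and 0.891% higher). Pgm1 fell, with levels of 2.97, 2.06, 3.78, 1.74, 3.93 and 1.95 and a fitted difference of -2.01 ± 0.27 (SE, limma adjusted p = 0.0467). Pgm1 is a phosphoglucomutase, which links glycogen and glucose-6-phosphate. With the block (background 3.26% lower) a second gene of that list passed as lower, Hkdc1, a hexokinase-related gene, at -2.95 ± 0.32 (limma adjusted p = 0.0191). In the mES pair Hkdc1 went the other way, by 1.58. The median of the list was -0.35, against -0.19 for all genes, with 12 negative and 6 positive estimates. In the comparison of EpiSCs with mES cells, 1 of the 18 passed (background 1.11% lower and 0.39% higher). Ldhc, the germ-cell lactate dehydrogenase, had levels of -0.41, 0.05, -6.05, -8.43, -7.93 and -8.02. It was well above background on both mES arrays and on the untreated E3.5 array, and not on the other 3, so 1 of the 2 untreated EpiSC arrays measured it. It was lower in EpiSCs at -6.58 ± 0.83 (SE, limma adjusted p = 0.0471), a value that holds the E5.5 signal as measured, and it entered the test through the arrays where it was above background.

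For mitochondrial pyruvate entry and use, 0 of 9 genes passed with SB431542 in EpiSCs (limma, background 2.09% in either direction), and the median was -0.09. In the tricarboxylic acid cycle 0 of 20 passed, 16 estimates were negative and the median was -0.25, close to that of all genes. In the pentose phosphate pathway 0 of 9 passed and all 9 estimates were negative, with a median of -0.69. The median over all genes was itself -0.19, so negative estimates were the more common there too. Of 4 gluconeogenic genes measured 0 passed without the block and 2 with it, where the background was 3.26% lower: Pck2 at -2.11 ± 0.33 (limma adjusted p = 0.0374) and Fbp1 at -2.36 ± 0.36 (limma adjusted p = 0.0348).

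Hypoxia-inducible genes outside glycolysis were listed beside the members. This list too was chosen with earlier results of these data known, so its counts beside the background are a description and not a test. Of 11, 0 passed without the block and 4 with it, all lower (background 3.26%): Ndrg1 at -4.23 ± 0.52 (limma adjusted p = 0.0231), Egln3, a prolyl hydroxylase, at -2.74 ± 0.30 (limma adjusted p = 0.0191), Adm at -2.41 ± 0.36 (limma adjusted p = 0.0345) and Ankrd37 at -2.27 ± 0.35 (limma adjusted p = 0.0361). The median of the list was -1.43, and 9 of 11 estimates were negative. The positive ones were Car9 at 0.02 and Egln1 at 0.09. Vegfa, at -0.23, differed by 0.19 in the E3.5 line and -0.65 in the E5.5 line. In the mES pair Egln3 differed by -1.81 and Ndrg1 by -1.04. Among 10 regulators 0 passed with or without the block: Hif1a, which encodes the oxygen-regulated subunit, differed by 0.25, 0.40 and 0.22 in the mES, E3.5 and E5.5 pairs, and Myc by -0.52, -1.32 and -1.003. Of 9 proliferation genes 0 passed, and their median of -0.25 was close to that of all genes. The low Pou5f1 and high Hes5 levels were on the same treated EpiSC arrays as the members' differences, and their part in them was not tested.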

How the data were processed

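RNA of 6 cell samples, labelled with Cy3, was measured on one-colour Agilent arrays, as the labels state. The deposited scanner files hold each spot's intensity on a linear scale. The file headers name Agilent Feature Extraction 10.7.1.1 and the submitters' processing notes name 9.1, and which made the values was not settled. The deposited flags for signal over background, saturation and outliers are yes-or-no marks, per the file headers. The deposited table of the whole series matched these intensities at 45018 of 45018 spots per array; it is linear and uncentred (medians 182 to 270), so its use gives the same values.

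Control and outlier spots were left out of 43379 gene spots, repeat spots were averaged, and log2 intensity was taken relative to the array's 75th percentile over spots (1388, 1283, 1194, 1803, 1229 and 1462 in array order). That percentile was first taken over probes; spots were chosen with those results known, and both are given. The columns used here hold no gene names, so 24375 of 41174 probes were named by unversioned accession through RefSeq of GRCm38.p6; 16799 were not named. The files were made on another build, so probes have no coordinates here. The probes named 17016 genes. The test kept the 16153 with signal well over background on 1 array or more; 14476 had it on all 6.

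Two-sided tests were run with lmFit and eBayes of limma 3.58.1 (R 4.3.3), with Benjamini-Hochberg adjustment over all tested genes at 0.05. A fit of 4 arms took both EpiSC lines as replicates, with 2 residual degrees of freedom (1 with the line block), and gave the lone mES arrays the same spread. Models of line plus treatment gave the common response and the line difference. Treated and untreated arrays of a line are paired because they come from the same cell line; over 16153 genes the E3.5 line's deviations on untreated and treated arrays correlated at 0.27. The fits were tested on simulated data. Single pairs of arrays have no test and were described by a 2-fold rule. The number of arrays limits the precision.

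All members were named, and in full those that passed a test with or without the block, those at least 2-fold changed one way in both EpiSC lines and at least 1 of each step; of the other lists, genes that passed, at most 6 a comparison, and Hif1a and Myc, which were chosen after their values were seen. Car9, Egln1, Vegfa, Col3a1 and Tagln were likewise named after their values were seen. The members and lists were chosen with earlier results of these data known. Alternatives changed the normalization, background, filter, probe choice, block and arrays kept.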

Additional observations from a re-analysis of the deposited data

Results flagged for a closer look

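Ldhb and Pdk3 were noted because the sign of their difference with SB431542 was not the same in the EpiSC lines, and the difference between lines was not tested. Ldhb differed by 0.04 in the E3.5 line and -0.04 in the E5.5 line, a gap of 0.082 on the log2 scale. Each is a 1.03-fold difference, while repeat spots of a probe had a median coefficient of variation of 5.4% to 7.8%. Pdk3 differed by -0.09 and 0.20, a gap of -0.29. The second Pdk3 probe was higher with SB431542 in both lines, from 0.50 to 0.71 in the E3.5 line and from 0.20 to 0.82 in the E5.5 line. The Pdk3 probes thus disagree on the E3.5 line.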

How the results depend on the processing

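The alternatives changed one choice at a time, except where the block is named with another choice. In the test of SB431542 in EpiSCs, 0 of 34 members passed as lower in the main setting (194 of all genes, 1.2%), 3 with only genes above background on all 6 arrays (298 of 14476, 2.06%), 3 with the line as a replicate block (527, 3.26%), 3 with that block and the array median (467, 2.89%) or the percentile over probes (470, 2.91%), 1 with normexp (Slc2a3; 283, 1.75%) and 16 with the block and normexp (2000, 12.4%), where 1 also passed as higher (710, 4.4%). For the common response 0 members passed with all arrays and 3 without either mES array (527 of all genes, 3.26%), so the range over arrays left out was 0 to 3. The fit without an mES array is the EpiSC test with the line block, so those 3 calls are the same result counted again. Medians over the members moved as follows. For SB431542 in EpiSCs the main -0.96 became -0.73 with quantile normalization, with or without the block, and ran from -1.16 to -0.83 with an array left out. For its difference from mES cells the main -0.62 became -0.29 with quantile normalization. For EpiSCs against mES the main -0.04 became 0.0093 with quantile normalization, -0.12 with normexp, 0.0046 with the array median and -0.012 within slide 1, and ran from -0.050 to -0.012 with an array left out. With an array left out the common response ran from -0.96 to -0.49 and the line difference from -0.14 to 0.34. Normexp moved the median of all genes from -0.19 to -0.33 for SB431542 in EpiSCs and from -0.06 to 0.13 for EpiSCs against mES, and the members less all genes then stood at -0.61 and -0.25. The mES pair had 1 member at least 2-fold lower with the mean over all probes. Estimates that changed sign belonged to genes that did not pass. For SB431542 in EpiSCs they were Ldhb (-2.29e-05 normexp, -0.00764 array median, both also with the block), Pdk3 (-0.0686 normexp, also with the block), and over arrays left out Ldhb (-0.32 to 0.33), Pdk3 (-0.0705 to 0.17) and Pfkfb2 (-0.14 to 0.98). For EpiSCs against mES they were Eno1 (0.034 quantile), Aldoa (-0.095 normexp, -0.038 mean over probes), Gapdh (-0.042 normexp), Pgam1 (0.00919 array median), Hk1 (-0.54) and Dlat (0.057) with the mean over probes, and over arrays left out Aldoa (-0.031 to 0.27), Eno1 (-0.096 to 0.0078) and Pdk4 (-0.78 to 0.11), with the sign turned only without the E3.5 EpiSC array. The cause of these changes was not tested. With the treated E3.5 or the treated E5.5 array left out, 0 of all genes passed for SB431542 in EpiSCs, against 338 with both. A gene name alternative was not run because it equals the main setting, and normexp on mean signals was not run because that column is not used here; the median signal took its place and, like the array median, the percentile over probes and the combined settings, was chosen after seeing the data. A block for slide leaves no residual degrees of freedom. With 1 array per group the spread within a group is unknown.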
